A study of Mus musculus with 6 samples.

Results

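The miR-106b-25 and miR-106a-363 clusters are paralogs of the miR-17-92 cluster, and their products were followed here in mouse heart cardiomyocytes. The members are the mature arms of miR-106b, miR-93 and miR-25 (miR-106b-25) and of miR-106a, miR-18b, miR-20b and miR-363 (miR-106a-363), chosen by name. They make up 14 of 1952 mature miRNAs in the count table, 12 of them with at least 1 count. The arms miR-106a-3p and miR-20b-3p had 0 counts in every library.

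The study sequenced small RNA from C57BL/6 mice that lack the long non-coding RNA lncSync (labelled LncSync-/-, called KO here) and from wild-type (WT) mice, as adults and as embryos at e13.5 (embryonic days). The 6 libraries are 2 adult KO, 2 adult WT, 1 e13.5 KO and 1 e13.5 WT, all labelled as cardiomyocytes of the heart. The sources used here do not give the age of the adults, the number of animals behind a library or how the null allele was made. Replicates are not stated to be separate animals, so a p-value speaks of the spread between libraries, and that spread may be technical. Mature counts totalled 14347091 and 17608586 in adult KO, 17933518 and 16794840 in adult WT, 2671957 in e13.5 KO and 8944552 in e13.5 WT. A miRNA table holds no count of lncSync itself and so gives no check of the genotype labels.

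The cardiomyocyte miRNAs miR-1a, miR-133a, miR-133b, miR-208a, miR-208b and miR-499 together held 28.2% to 39.5% of counts in the adult libraries. They held 9.86% in e13.5 KO and 14.6% in e13.5 WT. Among them, miR-1a-3p alone did not separate the stages. It stood at 81490 and 256336 CPM (counts scaled by library, as defined below) in adult KO and 145347 and 151055 CPM in adult WT. In e13.5 KO it stood at 94848 CPM and in e13.5 WT at 139959 CPM. The smooth muscle miRNAs miR-143 and miR-145a held 7.11% to 11.6% in adults, against 21.2% in e13.5 KO and 35.1% in e13.5 WT. All 4 smooth muscle arms had counts in every library. Of the 13 cardiomyocyte arms, 5 had 0 counts in e13.5 KO and 1 had 0 counts in e13.5 WT. In the adult libraries, 3 and 1 of them had 0 counts in KO and 2 and 2 in WT. Endothelial miR-126a held 1.65% to 3.11% in adults, 1.63% in e13.5 KO and 1.90% in e13.5 WT, mesenchymal miR-199a and miR-214 held 0.190% to 0.366%, 0.298% and 0.435%, and leukocyte miRNAs held 0.0998% to 0.214%, 0.0128% and 0.00664%, in the same order. In bulk RNA of this kind, fewer cells of a type and less RNA per cell cannot be told apart, and the part of these markers in the stage differences below was not tested.

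A microRNA is cut from a hairpin transcript, and 1 or both strands of the hairpin (the 5p and the 3p arm) are loaded into Argonaute, where they guide the repression of messenger RNAs. Target choice rests mainly on the seed, bases 2 to 8, so miRNAs with one seed can act on overlapping targets. The miR-17 family, spread over these 3 clusters, is known for promoting cell-cycle progression, among others by targeting the cyclin-dependent kinase inhibitor p21. Members of the E2F pathway are also among its targets. In mice, loss of miR-17-92 disturbs heart and lung development, whereas loss of either paralogous cluster alone is tolerated.

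The mature sequences are printed because the paralogs differ by few bases, which sets what a read can tell apart. RefSeq on GRCm38.p6 held 13 of the 14 member arms. All are written 5′ to 3′ with the seed in capitals. The first set carries the miR-17 seed and includes miR-17-5p and miR-20a-5p of miR-17-92 for comparison.
miR-93-5p: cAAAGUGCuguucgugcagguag
miR-106b-5p: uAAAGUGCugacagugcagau
miR-106a-5p: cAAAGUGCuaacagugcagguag
miR-20b-5p: cAAAGUGCucauagugcagguag
miR-17-5p: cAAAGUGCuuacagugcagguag
miR-20a-5p: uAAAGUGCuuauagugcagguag

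The second set carries the miR-25 seed, a different family that the clusters also encode, with miR-92a-3p of miR-17-92 for comparison.
miR-25-3p: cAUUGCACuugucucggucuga
miR-363-3p: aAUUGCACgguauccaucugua
miR-92a-3p: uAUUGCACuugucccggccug

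The third set is the miR-18 pair.
miR-18b-5p: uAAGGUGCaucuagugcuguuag
miR-18a-5p: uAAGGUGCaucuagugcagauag

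Of the strands opposite these guides, the 3p arm of miR-106b was the most abundant in every library, and no other member has its seed.
miR-106b-3p: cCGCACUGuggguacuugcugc

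Counted from the 5′ end, miR-17-5p and miR-106a-5p differ by the single substitution U10A (miR-17-5p has the first base). miR-20a-5p and miR-20b-5p differ by U1C and U10C, and miR-18a-5p and miR-18b-5p by A18U and A20U. miR-93-5p stands further from miR-17-5p, by U10G, A11U, C12U and A13C. miR-25-3p differs from miR-92a-3p by U1C, C14U and C18U over 21 bases, while miR-363-3p shares little beyond the seed with miR-92a-3p, with 11 of 21 bases different. How the authors treated reads that match more than 1 of these is not stated in the sources used here, so small counts of miR-106a-5p, miR-20b-5p and miR-18b-5p are uncertain.

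The hairpins of miR-106b-25 lie within 498 bp on the minus strand of chromosome 5 (GRCm38, GENCODE M21): Mir25 at chr5:138165321-138165404, Mir93 at chr5:138165523-138165610 and Mir106b at chr5:138165737-138165818. All 3 sit in intron 13 of Mcm7-201, a transcript of Mcm7, which encodes a subunit of the replicative helicase. The hairpins of miR-106a-363 lie within 875 bp on the minus strand of chromosome X: Mir363 at chrX:52741693-52741767, Mir20b at chrX:52742113-52742192, Mir18b at chrX:52742331-52742413 and Mir106a at chrX:52742503-52742567. The long non-coding gene Kis2 (chrX:52742563-52744960) is annotated on the same strand and overlaps Mir106a at its edge, and Mir92-2 and Mir19b-2 lie between Mir363 and Mir20b.

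The member arms of the clusters differed in level by orders of magnitude. Products of miR-106b-25 summed to 3273 and 1851 CPM (counts divided by the mature count of the library and scaled to a common total) in adult KO, 3071 and 2429 CPM in adult WT, 3079 CPM in e13.5 KO and 2024 CPM in e13.5 WT. This is 0.185% to 0.327% of all mature counts, and the adult and e13.5 values overlapped on this scale. The arms of miR-106a, miR-18b, miR-20b and miR-363 summed to 3.42 and 0.227 CPM in adult KO and 2.51 and 1.19 CPM in adult WT. They summed to 66.2 CPM in e13.5 KO and 18.3 CPM in e13.5 WT. Products of Mir19b-2 and Mir92-2, hairpins of the same cluster, are not in these sums. The table does not separate their 3p arms from the copies in miR-17-92. For the sum of the X-linked member arms, though not for each arm, both e13.5 libraries were above every adult library. Within a library no scaling enters. There miR-106b-25 had 958 and 8150 times the counts of the X-linked members in adult KO and 1224 and 2039 times in adult WT. It had 46.5 times their counts in e13.5 KO and 110 times in e13.5 WT. The 8150 rests on 4 counts of those members in adult KO replicate 2. These sums were described without a test. A count of 0 allows up to 3 counts, which is 0.1673 to 0.2091 CPM in the adult libraries, 1.123 CPM in e13.5 KO and 0.3354 CPM in e13.5 WT. Such floors, and the intervals given below, cover counting error only.

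**Figure D1:**
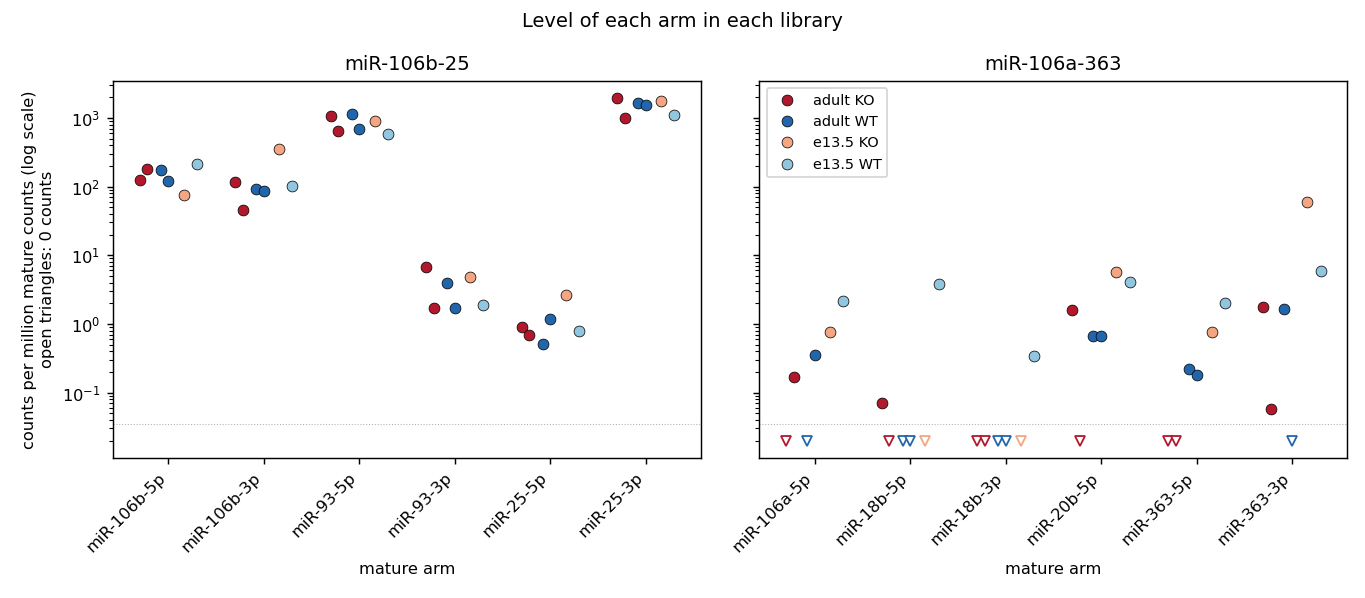
CPM on library totals (log scale) of the 12 member arms with at least 1 count, 1 point per library, with libraries at 0 counts drawn as open triangles under the dotted line. miR-25-3p and miR-93-5p lay between 591 and 1941 CPM in every library, whereas no member arm of miR-106a-363 exceeded 59.1 CPM.

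miR-25-3p was the most abundant member, with a mean of 1498 CPM over the libraries, rank 58 of all mature miRNAs. miR-93-5p followed at 839 CPM (rank 77), then miR-106b-5p at 148 CPM (rank 152) and miR-106b-3p at 132 CPM (rank 161). The last 2 overlapped in their libraries and could not be ordered. Within the cluster, miR-25 took 53.0% to 62.9% of counts in the 6 libraries, miR-93 took 28.6% to 37.4% and miR-106b took 7.45% to 15.4%. The order miR-25, miR-93, miR-106b was the same in every library, and it is a comparison of reads, which ligation bias can shift between sequences. Among the X-linked members miR-363-3p led with a mean of 11.4 CPM (rank 322), carried by the e13.5 KO library. The others averaged 2.11 CPM (miR-20b-5p) or less.

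The stage comparison asks which miRNAs differ between adult and embryonic cardiomyocytes. Among the 10 member arms with enough counts to be tested, miR-93-5p and miR-25-3p rose in adults and miR-363-3p fell (edgeR quasi-likelihood test over all 6 libraries with genotype as a covariate, Benjamini-Hochberg adjusted p under 0.05). Of all 679 miRNAs tested, 28.4% passed as higher, 29.3% as lower and 57.7% in either direction, so 2 higher and 1 lower of 10 is no more than this background. The 2 higher calls also depend on the scaling and on the libraries used, as set out below.

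Scaling by the trimmed mean of M-values (TMM) assumes that most miRNAs do not differ between libraries. Scaled in this way, miR-93-5p stood at 1124 and 1126 CPM in adult KO and 1267 and 917 CPM in adult WT. It stood at 410 CPM in e13.5 KO and 476 CPM in e13.5 WT. All 4 adult libraries were above both e13.5 libraries. The log2 fold was 1.33 (SE 0.437, adjusted p = 0.0296, edgeR quasi-likelihood). miR-25-3p stood on the same scale at 2018 and 1730 CPM in adult KO, 1837 and 2022 CPM in adult WT, 813 CPM in e13.5 KO and 902 CPM in e13.5 WT, again without overlap. Its log2 fold was 1.15 (SE 0.416, adjusted p = 0.0405, edgeR quasi-likelihood).

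These 2 calls were not stable. The median log2 fold of all miRNAs between the stages was 0.06 with TMM, −0.72 with median-of-ratios size factors and −0.93 with library totals alone. With median-of-ratios factors the log2 folds were 0.55 for miR-93-5p and 0.38 for miR-25-3p, and with library totals 0.28 and 0.10, and none of these passed. Relative to the median miRNA both arms were thus higher in adults by similar amounts on each scale. Without a filter on low counts the log2 folds were as large, 1.37 and 1.20, and did not pass (adjusted p = 0.0561 and 0.0993, edgeR quasi-likelihood). Neither arm passed when any 1 of the 6 libraries was left out, with log2 folds of 0.73 to 1.41 for miR-93-5p and 0.67 to 1.16 for miR-25-3p. With the 2 adult WT libraries against the single e13.5 WT library the log2 folds were 1.20 and 1.10, where the spread comes from 2 libraries. The folds were the same when adult KO was added.

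The third hairpin of the cluster was less even. miR-106b-5p had a log2 fold of 1.16 (SE 0.748, adjusted p = 0.208, edgeR quasi-likelihood), with 131 and 321 TMM-scaled CPM in adult KO, 192 and 157 in adult WT, 34.7 in e13.5 KO and 169 in e13.5 WT. The e13.5 WT value fell among the adult values and the e13.5 KO value lay below all of them. Without the e13.5 KO library the log2 fold was 0.04, and without the e13.5 WT library it was 2.68 and passed. miR-106b-3p had a log2 fold of −0.15 (SE 0.487), miR-93-3p of 1.14 (SE 0.797) and miR-25-5p of 0.27 (SE 1.09), with adjusted p-values of 0.805, 0.235 and 0.855 in the same edgeR fit.

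Of the X-linked arms, miR-363-3p had 25 and 1 counts in adult KO, 29 and 0 in adult WT, 158 in e13.5 KO and 53 in e13.5 WT. In CPM this is 1.74 and 0.0568 in adult KO, 1.62 and 0 in adult WT, 59.1 in e13.5 KO and 5.93 in e13.5 WT, so both e13.5 libraries were above all adults. The log2 fold of adult over e13.5 was −3.74 (SE 1.36, adjusted p = 0.0415, edgeR quasi-likelihood), and it passed under both other scalings, at −4.49 and −4.73. It did not pass without e13.5 KO (−2.39), without adult KO replicate 1 (−4.67) or 2 (−3.49) or without adult WT replicate 2 (−4.15). It passed without adult WT replicate 1 (−6.22) and without e13.5 WT (−4.85).

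The other X-linked arms tested had negative log2 folds that did not pass with TMM: −3.31 for miR-363-5p (SE 1.48), −2.21 for miR-106a-5p (SE 1.73) and −1.82 for miR-20b-5p (SE 1.20). miR-363-5p passed under median-of-ratios factors (−4.01) and library totals (−4.15), and miR-20b-5p passed without adult KO replicate 1 (−3.44). Counts of miR-363-5p were 0 and 0 in adult KO, 4 and 3 in adult WT, 2 in e13.5 KO and 18 in e13.5 WT. miR-20b-5p had 23 and 0 counts in adult KO, 12 and 11 in adult WT, 15 in e13.5 KO and 37 in e13.5 WT. miR-106a-5p had 0 and 3 counts in adult KO, 0 and 6 in adult WT, 2 in e13.5 KO and 19 in e13.5 WT. Each had its highest count in e13.5 WT although that library is shallower than the adult ones. The e13.5 KO library is shallower still, and on library totals miR-20b-5p was higher there, at 5.61 CPM against 4.14 CPM in e13.5 WT. miR-18b-5p had 34 counts in e13.5 WT, 1 in adult KO replicate 1 and 0 in the other 4 libraries, and miR-18b-3p had 3 counts, all in e13.5 WT. miR-18b-5p did not reach the count filter over all libraries.

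**Figure D2:**
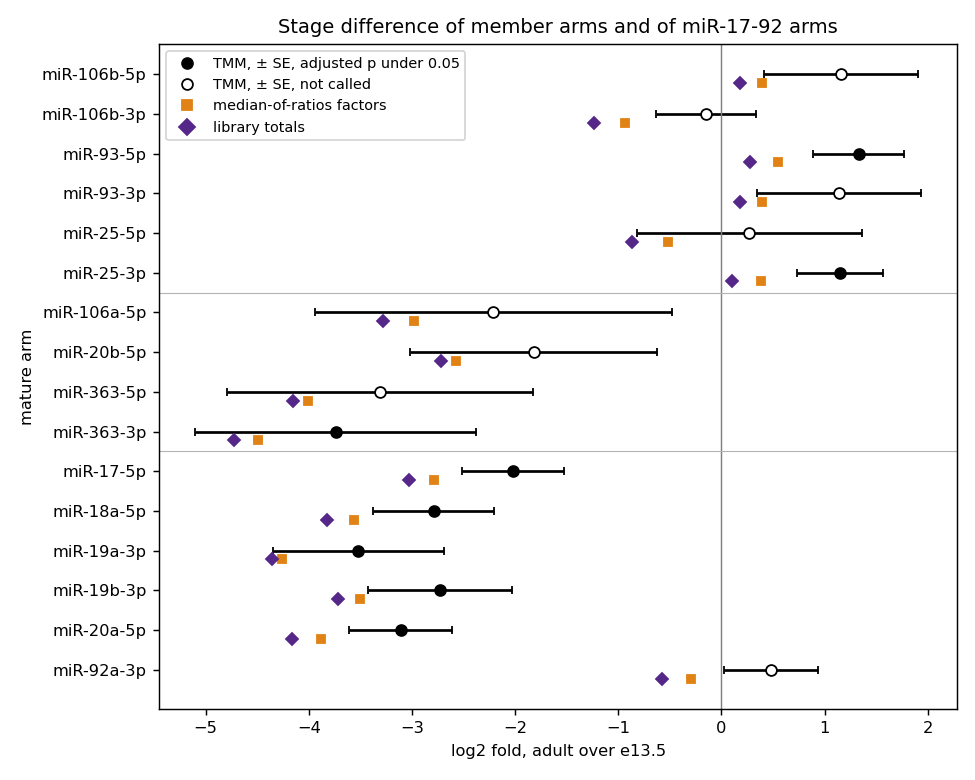
Log2 fold of adult over e13.5 for the 10 tested member arms and for 6 arms of miR-17-92, with TMM scaling (circles, bars ± SE, filled where the adjusted p was under 0.05), median-of-ratios factors (squares) and library totals (diamonds). miR-20a-5p (−3.11) and miR-19a-3p (−3.52) lay far below 0 on every scale, while miR-93-5p and miR-25-3p lay above 0 on every scale, by 0.10 to 1.33.

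Of the 10 tested arms of miR-17-92, on chromosome 14, 5 fell in adults and 1 rose, where 29.3% of all miRNAs tested passed as lower and 28.4% as higher. miR-17-5p, miR-18a-5p, miR-19a-3p, miR-19b-3p and miR-20a-5p fell in adults, with log2 folds of −2.02, −2.79, −3.52, −2.73 and −3.11 and adjusted p-values of 0.000987 to 0.00947 (edgeR quasi-likelihood). These 5 passed under both other scalings too, but without e13.5 WT miR-20a-5p was the only one to pass. miR-20a-3p rose with TMM (log2 fold 3.83, adjusted p = 0.0292, edgeR quasi-likelihood). Under the other scalings in edgeR its log2 folds were 3.10 and 3.03 and did not pass, while DESeq2 called it at 3.2. miR-92a-3p had a log2 fold of 0.48 (SE 0.452) and did not pass. Part of the miR-19b-3p and miR-92a-3p counts can come from the X-linked hairpins Mir19b-2 and Mir92-2, whose 3p arms are not separate in the table. Their copy-specific 5p arms had 0 counts for miR-19b-2-5p and 1 count, in e13.5 KO, for miR-92a-2-5p.

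Ratios within a library need no scaling. The hairpins miR-17, miR-18a, miR-19a and miR-20a were set against miR-106b-25 first, because the table does not separate miR-19b-3p and miR-92a-3p from their X-linked copies. The counts of miR-106b-25 were 18.5 and 11.6 times those of miR-17, miR-18a, miR-19a and miR-20a together in adult KO, 13.9 and 18.3 times in adult WT, 1.56 times in e13.5 KO and 0.877 times in e13.5 WT. All adult ratios were above both e13.5 ratios, and the mean log2 ratio was 3.93 ± 0.33 in adults (SD, n = 4) and 0.23 in the 2 e13.5 libraries. With every arm of miR-17-92 in the denominator, miR-19b and miR-92a included from both of their loci, the ratio was 1.06 and 1.47 in adult KO, 1.23 and 1.26 in adult WT, 0.422 in e13.5 KO and 0.468 in e13.5 WT. The stages again did not overlap, but the difference in mean log2 ratio was 1.49, against 3.71 without those arms. This second denominator was chosen after seeing the data. Of the first ratio, the denominator moved more than the numerator: miR-17, miR-18a, miR-19a and miR-20a summed to 177 and 160 CPM in adult KO, 222 and 133 CPM in adult WT, 1976 CPM in e13.5 KO and 2309 CPM in e13.5 WT.

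The same held arm against arm. miR-93-5p had 11.5 to 15.8 times the counts of miR-17-5p in the 4 adult libraries, 2.01 times in e13.5 KO and 0.966 times in e13.5 WT. miR-106b-5p had 1.84 and 3.28 times the counts of miR-17-5p in adult KO, 2.05 and 2.51 times in adult WT, 0.170 times in e13.5 KO and 0.344 times in e13.5 WT. Neither ratio overlapped between the stages. With 4 against 2 libraries an exact two-sided permutation test cannot go below p = 0.133, so these ratios are descriptions.

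miR-93-5p and miR-106b-5p together had 8.50 and 5.89 times the counts of miR-17-5p and miR-20a-5p in adult KO, 6.70 and 7.59 times in adult WT, 0.523 times in e13.5 KO and 0.372 times in e13.5 WT. Members therefore held 89.5% and 85.5% of all counts with the miR-17 seed in adult KO, 87.0% and 88.4% in adult WT, 34.5% in e13.5 KO (Wilson 95% interval 33.4 to 35.6) and 27.3% in e13.5 WT (26.8 to 27.8). The seed family as a whole stood at 1351 and 961 CPM in adult KO, 1513 and 920 CPM in adult WT, 2814 CPM in e13.5 KO and 2958 CPM in e13.5 WT. Most of the family's counts in adults came from miR-93-5p, at 66.5% to 80.0%, and the largest share at e13.5 was that of miR-20a-5p, at 49.8% in KO and 52.0% in WT.

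**Figure D3:**
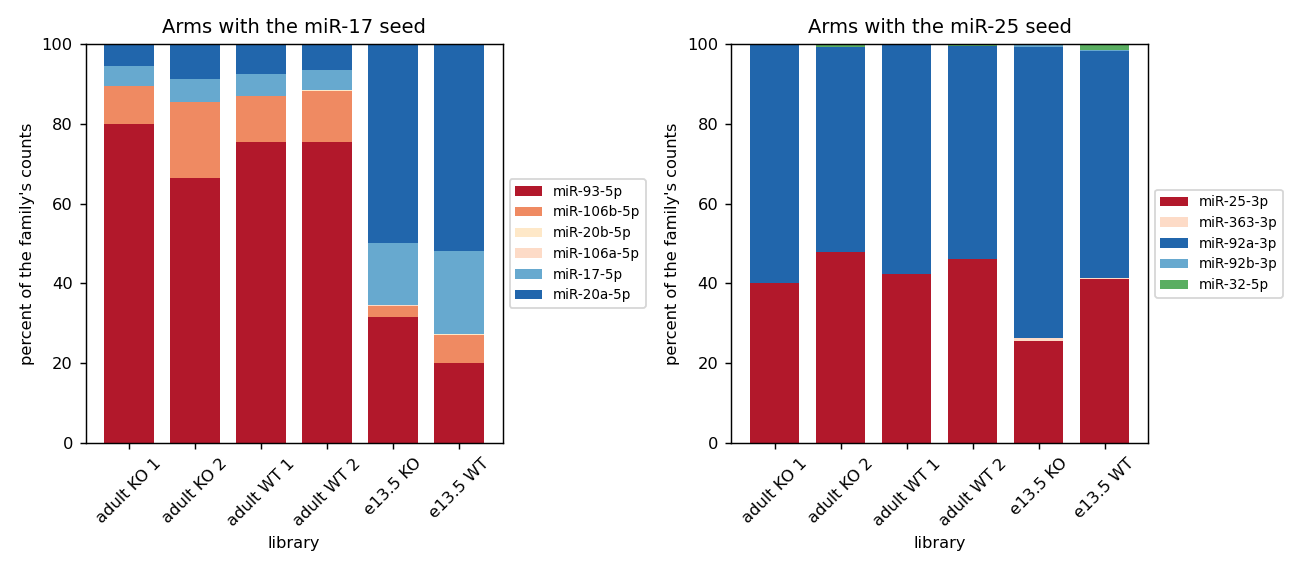
Percent of each seed family's counts held by each arm in each library. Members are in red and orange shades and other arms in blue and green. miR-93-5p and miR-106b-5p fill most of the miR-17 family in the adult libraries, where members together hold 85.5% to 89.5%, against 34.5% in e13.5 KO and 27.3% in e13.5 WT, while miR-25-3p holds 25.5% to 47.8% of the miR-25 family throughout.

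In the miR-25 family the stages were not separated in this way. miR-25-3p had 0.673 and 0.930 times the counts of miR-92a-3p in adult KO, 0.741 and 0.863 times in adult WT, 0.349 times in e13.5 KO and 0.723 times in e13.5 WT. The e13.5 WT ratio lay within the adult range and the e13.5 KO ratio below it. miR-363-3p contributed 0.0414% or less of the family's counts in adults, 0.855% in e13.5 KO and 0.218% in e13.5 WT. In the miR-18 pair, miR-18b-5p had 4.56% of the counts of miR-18a-5p in e13.5 WT and 0 counts beside 132 of miR-18a-5p in e13.5 KO. miR-20b-5p never exceeded 2.18% of the counts of miR-20a-5p, nor miR-106a-5p 0.755% of those of miR-17-5p.

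The adult genotype comparison asks whether loss of lncSync goes with a change in these miRNAs. None of the 8 member arms tested passed (edgeR quasi-likelihood, 4 adult libraries), where 4 of 544 miRNAs passed, which is 0.735%. At an unadjusted p under 0.05 there were 16 miRNAs in all (2.94%) and no member, and DESeq2 called no member either. The 4 called were miR-322-3p, miR-351-5p, miR-503-3p and miR-503-5p. On chromosome X, Mir322 begins 312 kb beyond the end of Mir106a.

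miR-25-3p had 27842 and 17281 counts in adult KO, against 29720 and 25647 in adult WT. Its log2 fold was 0.02 (SE 0.407), and miR-93-5p had 0.11 (SE 0.421), with 15504 and 11251 counts in adult KO, against 20501 and 11639 in adult WT. Both pairs overlapped. miR-106b-5p had a log2 fold of 0.43 (SE 0.532) and miR-106b-3p of −0.03 (SE 0.445), with adjusted p = 0.999 for all 4 (edgeR quasi-likelihood). The SE of the rarer arms reached 1.90 for miR-363-3p (log2 fold 0.16) and 1.69 for miR-20b-5p (0.15), and their replicates lay far apart, with 25 and 1 counts of miR-363-3p in adult KO and 29 and 0 in adult WT. Changes of several fold in these were not detectable with this spread. The adult KO replicates differed from each other more than the WT replicates, by a median of 0.859 against 0.341 on the log2 scale over miRNAs with a mean of at least 100 CPM.

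Over both stages together, none of 10 member arms passed for genotype, where 5 of 679 miRNAs passed (0.736%). At an unadjusted p under 0.05 there were 14 miRNAs (2.06%) and no member, and DESeq2 called no member. The smallest unadjusted p of a member was 0.0827, for miR-363-5p, with a log2 fold of KO over WT of −3.11 (SE 1.59, adjusted p = 0.989, edgeR quasi-likelihood).

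At e13.5 each genotype had 1 library, so folds are given without a test. Folds were computed for the 565 miRNAs that reached 10 counts in KO or in WT, and 18.2% of them differed 4-fold or more, 8.32% as higher and 9.91% as lower in KO. Of the 10 members among them, 3 did: miR-363-3p was higher, and miR-106b-5p and miR-18b-5p were lower. With a prior count of 0.5 in place of 2, 5 members did. The share of all described miRNAs was not computed at that prior count, so the 5 have no background beside them. The median log2 fold of all described miRNAs was −0.42 on TMM-scaled CPM, and 0.37 with library totals.

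miR-106b-5p had 75.2 CPM in e13.5 KO, against 210 CPM in e13.5 WT, a ratio of 0.358 (95% counting interval 0.308 to 0.414). The other arm of the same hairpin went the opposite way, with 348 CPM in e13.5 KO against 101 CPM in e13.5 WT, a ratio of 3.43 (3.13 to 3.77). miR-93-5p had 888 CPM in e13.5 KO against 591 CPM in e13.5 WT, with a 95% counting interval of 1.43 to 1.58 for the ratio. miR-25-3p had 1760 CPM in e13.5 KO against 1119 CPM in e13.5 WT, a ratio of 1.57 (1.52 to 1.63). On TMM-scaled CPM the log2 folds were −2.28 for miR-106b-5p, 0.97 for miR-106b-3p, −0.21 for miR-93-5p and −0.15 for miR-25-3p, so the direction of the last 2 turns with the scaling.

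miR-363-3p had 59.1 CPM in e13.5 KO against 5.93 CPM in e13.5 WT, a ratio of 9.98 (95% counting interval 7.27 to 13.9) and a log2 fold of 2.47 on TMM-scaled CPM. Its hairpin partner miR-363-5p had 2 counts in e13.5 KO and 18 in e13.5 WT, a ratio of 0.372 (0.0419 to 1.55). miR-18b-5p, with 0 counts in e13.5 KO and 34 in e13.5 WT, was at least 3.39-fold lower in KO by a floor of 3 counts. Its fitted log2 fold, −4.23 with a prior count of 2 and −6.17 with 0.5, depends on that prior count and is no bound. miR-20b-5p had a ratio of 1.36 (0.692 to 2.53) and miR-106a-5p of 0.352 (0.0398 to 1.46). Neither interval excluded equality. The log2 fold of miR-20b-5p was −0.34 on TMM-scaled CPM and 0.43 with library totals, so its direction turns with the scaling.

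Erythroid miRNAs differed between libraries of one stage. The 5 arms of miR-451a, miR-144 and miR-486a all had counts in every library and held 2.23% and 0.565% of counts in adult KO, 1.57% and 1.04% in adult WT, 1.43% in e13.5 KO and 0.0748% in e13.5 WT. miR-486a is also abundant in muscle. miR-451a, known from red blood cells, stood at 402 and 45.1 CPM in adult KO, 107 and 90.7 CPM in adult WT, 7547 CPM in e13.5 KO and 378 CPM in e13.5 WT. The libraries with more miR-363-3p (e13.5 KO at e13.5, replicate 1 of each adult genotype) also had a larger summed erythroid share than the other library of their genotype (adults) or stage (e13.5), and more miR-451a. In adult WT the remaining arms were split, since replicate 1 had less miR-486a-3p, miR-144-3p and miR-144-5p than replicate 2, and most of the adult share was miR-486a-5p. Across stages there was no such order, as e13.5 WT had the lowest erythroid share and more miR-363-3p than any adult library. The part of erythroid RNA in the miR-363-3p difference was not tested.

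GC content also moved with the e13.5 folds. Over the 475 described miRNAs with a RefSeq sequence (84.1%), the median log2 fold of e13.5 KO over WT was −1.15 at a GC content of 35% or less and 2.40 above 65%, and a straight line gave 0.83 per 10 percentage points. miR-106b-5p has 42.9% GC and miR-106b-3p 63.6%. After subtraction of the line the log2 fold was −1.85 for miR-106b-5p and −0.30 for miR-106b-3p, while miR-363-3p, with 40.9% GC, was at 3.07. The values for miR-93-5p and miR-25-3p were −0.55 and −0.30.

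**Figure D4:**
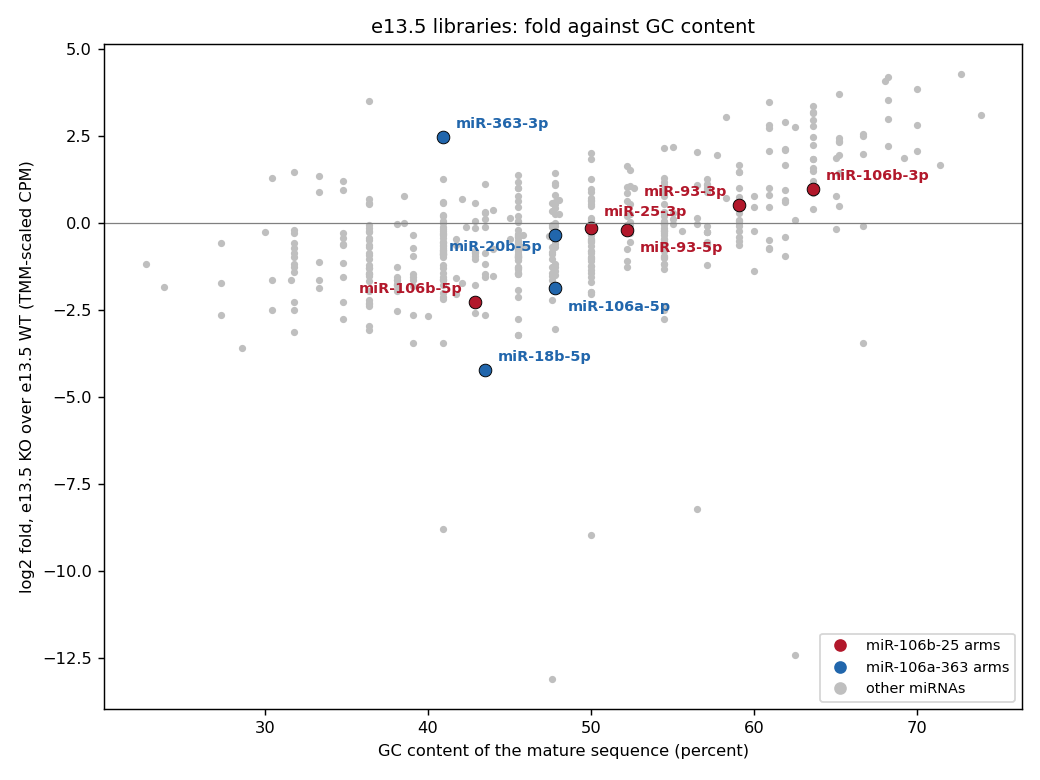
Log2 fold of e13.5 KO over e13.5 WT (TMM-scaled CPM, 1 library each) against the GC content of the mature sequence, for miRNAs with a RefSeq sequence; named points are members. Folds rise with GC content, from miR-106b-5p (−2.28) among the lower ones to miR-106b-3p (0.97) among the higher ones, and miR-363-3p (2.47) lies above the other miRNAs of equal GC content.

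Whether the genotype difference itself differed between the stages was tested as an interaction. Its spread rests on the adult replicates alone, which assumes that an e13.5 library would vary as much. None of 11 member arms passed, where 0 of 769 miRNAs passed (0%) and 46 had an unadjusted p under 0.05 (5.98%). DESeq2 called 4 miRNAs and no member. miR-106b-5p had the smallest unadjusted p of the members, 0.0281, with a difference of −2.67 in log2 fold (e13.5 minus adult, SE 1.02, adjusted p = 0.760, edgeR quasi-likelihood). Without adult KO replicate 1 it was −3.19 and miR-363-3p 5.56, against 2.42 (SE 2.49) with all libraries. That fit leaves 1 library in adult KO, so only the values are given. miR-18b-5p had the value farthest from 0, −10.37 (SE 5.70), with 0 or 1 counts in every library but e13.5 WT. The remaining values were 2.34 for miR-363-5p, 1.09 for miR-106b-3p, 0.93 for miR-25-5p, −0.04 for miR-93-3p, −0.10 for miR-25-3p, −0.25 for miR-93-5p, −0.41 for miR-20b-5p and −1.61 for miR-106a-5p.

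The arms of a hairpin share one precursor, so their ratio within a library is free of scaling. The miR-106b hairpin used both arms, with the 5p arm at 51.9% and 79.7% of the hairpin's counts in adult KO, 65.1% and 57.7% in adult WT, 17.8% in e13.5 KO (Wilson 95% interval 15.7 to 20.1) and 67.5% in e13.5 WT (65.7 to 69.2). The e13.5 KO library stood apart from the other 5. This ratio is not free of the GC trend in the e13.5 folds, as the 5p arm has 42.9% GC and the 3p arm 63.6%. Subtracting the GC line moved the log2 fold of e13.5 KO over WT from −2.28 to −1.85 for the 5p arm. For the 3p arm it moved from 0.97 to −0.30. The part of GC content in the arm share was not tested. The miR-93 hairpin gave 99.4% or more of its counts from the 5p arm in every library, and the 5p arm of miR-25 held 0.149% or less.

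**Figure D5:**
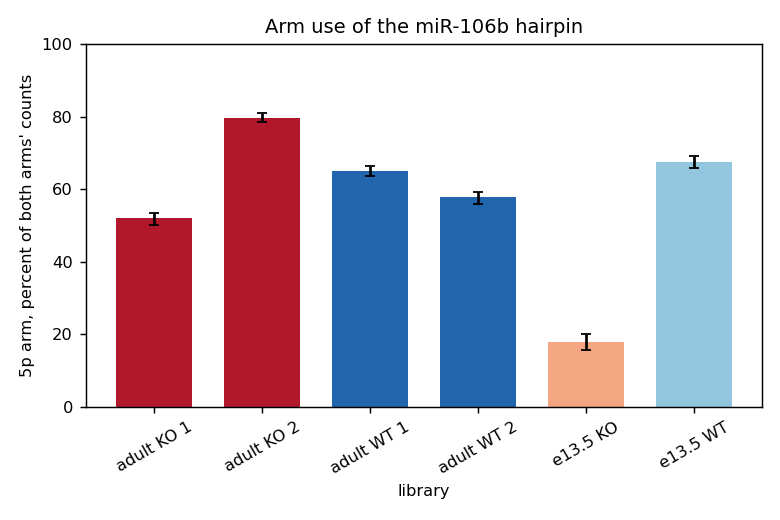
The 5p arm's percent of both arms' counts for the miR-106b hairpin in each library, with Wilson 95% intervals that cover counting error only. The e13.5 KO library is at 17.8%, and the other 5 libraries lie between 51.9% and 79.7%. The arms differ in GC content, with which the e13.5 folds moved.

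Between the stages, none of the 3 member hairpins tested passed for a difference in arm ratio (limma on log2 ratios of 5p over 3p, Benjamini-Hochberg adjusted over 163 hairpins), where 54.0% of hairpins passed in either direction. The difference of adult over e13.5 was 1.44 for miR-106b (SE 0.973, adjusted p = 0.214), 0.31 for miR-93 (SE 0.810, adjusted p = 0.730) and −1.0 for miR-25 (SE 0.823, adjusted p = 0.303), against a median of −1.0 over all hairpins. Without the e13.5 KO library the miR-106b value was −0.38. In miR-17-92, the ratio fell for miR-17 (−2.46, adjusted p = 0.0209) and miR-20a (−7.47, adjusted p = 2.82e-05) in the same limma fit. The miR-20a value rests on a 3p arm with 0 counts in e13.5 KO and 5 in e13.5 WT.

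The miRNAs whose pattern over the 6 libraries was most like that of miR-25-3p were miR-195a-3p, miR-30c-2-3p and miR-214-3p, with a mean absolute difference of 0.18, 0.18 and 0.19 between centred log2 values, against a median of 1.27 over 327 candidates. For miR-363-3p they were miR-342-5p (0.41), miR-501-3p (0.34) and miR-99b-3p (0.32), against a median of 1.73.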

How the data were processed

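Small RNA was extracted with TRIZOL, treated with DNase and made into libraries with the NEXTFLEX small RNA kit, per the labels. The deposited table holds raw read counts, as whole numbers, with a column for each library. The submitters' processing notes name the build mm10. Neither the aligner and counter nor the handling of reads that match several miRNAs is stated in the sources used here. The table held 3208 features, 1234 hairpins and 1974 mature miRNAs, and 22 mature miRNAs whose counts agreed within 1% with another were merged into it, which left 1952. No member was merged. No feature lacked a name.

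Counts were tested in R 4.3.3 with the quasi-likelihood test of edgeR 4.0.16 (glmQLFit and glmQLFTest, two-sided, TMM scaling, filterByExpr with a minimum count of 10, Benjamini-Hochberg adjusted p under 0.05 over all miRNAs tested). SEs are the log2 fold over the square root of F. Residual degrees of freedom were 3 for stage and for genotype over both stages and 2 for the adult and interaction fits. Arm ratios, log2 of (5p + 0.5)/(3p + 0.5), were tested with limma 3.58.1 on hairpins with a mean of at least 10 counts in each arm. Folds at e13.5 used a prior count of 2. DESeq2 1.42.0 was an alternative. The procedures were tested on simulated data with known changes. The simulated counts varied less between libraries than these data, so those runs do not show how often such changes would be found here. Sequences came from RefSeq on GRCm38.p6 and loci from GENCODE M21.

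The members, the comparison arms of the same seeds, the marker lists and the tests were chosen with earlier results of these data known. The text names every arm of the members and of the miR-17-92, miR-92b, miR-32 and miR-367 paralogs as needed, plus the 3 miRNAs nearest in pattern to the most abundant arm of each cluster among those with a mean of at least 10 CPM. The likeness used log2(TMM-scaled CPM + 1).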

Additional observations from a re-analysis of the deposited data

How the results depend on the processing

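The stage comparison was the most sensitive. The main fit called 3 members, and 392 of 679 miRNAs in all. Without a filter on low counts 1 member was called, and 398 of 1231 miRNAs. DESeq2 called 1 member, and 406 of 679 miRNAs. With an adult library left out, 0 to 1 members were called, and 278 to 381 miRNAs of 652 to 667 tested. Calls of members and of all miRNAs thus both moved with the setting. Single arms turned direction as follows. Between stages, miR-25-5p had a log2 fold of −0.52 with median-of-ratios factors and with DESeq2, −0.87 with library totals and −0.21 without e13.5 WT, and −0.60 to 0.05 when an adult library was left out. miR-92a-3p had −0.29 with median-of-ratios factors and with DESeq2, −0.58 with library totals and −0.14 to 0.23 when an adult library was left out. miR-106b-3p had 0.42 without e13.5 KO and 0.41 in WT libraries alone. In adult KO over WT, miR-25-3p had 0.00 with median-of-ratios factors and with DESeq2 and −0.12 with library totals, and miR-93-5p and miR-25-5p each had −0.09 with library totals. Leaving out an adult library gave −0.41 to 0.94 for miR-106b-5p, −0.36 to 0.16 for miR-106b-3p, −0.23 to 0.34 for miR-93-5p, −0.10 to 1.19 for miR-93-3p, −0.10 to 0.07 for miR-25-3p, −0.51 to 0.87 for miR-25-5p, −3.02 to 6.59 for miR-363-3p and −6.38 to 1.05 for miR-20b-5p. In the interaction, miR-25-3p had 0.01 with median-of-ratios factors and with DESeq2, 0.78 with library totals and −0.17 to 0.02 when an adult library was left out. There miR-93-5p had 0.68 with library totals, miR-363-3p ranged over −3.68 to 5.56, and 0 to 2 members were called when an adult library was left out. The arm ratio of miR-106b was −0.38 without e13.5 KO. At e13.5, a prior count of 0.5 put 5 members past 4-fold, and the share of all miRNAs was not computed at that prior count. There miR-20b-5p was −0.34 with TMM, 0.43 with library totals, and miR-93-3p was 0.51, and −0.40 after the GC line. The difference in log2 ratio of miR-106b-25 over miR-17-92 between adult and e13.5 was 3.71, and 1.49 with every arm in the denominator, an alternative chosen after seeing the data. The cause of these changes was not tested. With the replicate block in the adult fit, 0 members and 5 miRNAs in all were called, against 4 without it, and miR-20b-5p had −0.96. Replicates of one number did not deviate together between genotypes (r = 0.01 over 544 miRNAs). A single correlation cannot show whether they shared a batch. The counts of members called for adult genotype, for genotype over both stages and for arm ratio were 0 under every alternative run. Fits that leave 1 library in a group assume that it varies like the others.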
